A study of Mus musculus with 8 samples.

Results

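The genes described here are 10 components of the first step of Toll-like receptor signalling, namely the receptors Tlr1, Tlr2, Tlr4, Tlr6, Tlr7, Tlr9 and Tlr13, the co-receptor Cd14, the adaptor Myd88 and the kinase Irak4. They were chosen by name, from the role of their products, and they are 10 of the 55414 gene rows counted in each library. All 10 had counts in every library and all passed the filter on low counts.

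RNA of mouse neutrophils sorted from the spleen was sequenced, with 4 WT libraries and 4 Cxcr2-/- libraries. Cxcr2 is a chemokine receptor that neutrophils use to leave the bone marrow and to migrate to inflamed tissue. Both groups were 10-week-old mice of the FVB background kept in SOPF housing, and no treatment is named for either. In the Cxcr2-/- mice the gene is missing from every cell of the animal, so that cells other than neutrophils lacked it too. After red cell lysis and magnetic enrichment of CD11b-bearing cells, cells that were CD45+ CD11b+ Ly6G+ and F4/80- were sorted. The comparison asks how the loss of Cxcr2 relates to the RNA of these pathogen sensors in the neutrophils found in the spleen.

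Toll-like receptors recognise microbial molecules and pass the signal through a cytoplasmic TIR domain. Tlr2 works at the cell surface with Tlr1 or Tlr6 and senses bacterial lipopeptides, and Tlr4 senses lipopolysaccharide with the help of Cd14, whereas Tlr7, Tlr9 and Tlr13 sense nucleic acids inside endosomes. All of them recruit Myd88, which gathers Irak4 and further kinases to activate NF-kB and the production of cytokines, and neutrophils depend on this route to respond to bacteria at once.

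Tlr1 and Tlr6 are neighbouring genes with very similar products, and they are shown first because their RNA moved in opposite directions in these cells. On mouse genome build GRCm38 (GENCODE M21) both lie on the minus strand of chromosome 5, Tlr1 from 64924679 to 64933563 and Tlr6 from 64952031 to 64960097, with 18.47 kb between them. Their coding sequences share an identical stretch of 229 bases within a single exon, at chr5:64925537-64925765 in Tlr1 and at chr5:64953828-64954056 in Tlr6, which is printed below in the direction of transcription.
Tlr1 and Tlr6 shared stretch: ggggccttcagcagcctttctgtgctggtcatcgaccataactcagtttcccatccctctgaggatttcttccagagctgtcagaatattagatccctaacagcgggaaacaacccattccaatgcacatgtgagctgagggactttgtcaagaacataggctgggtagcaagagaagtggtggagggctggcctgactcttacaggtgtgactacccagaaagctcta
Of all windows of 120 bases, the shortest read length kept, 6.1% of those in the Tlr1 transcripts and 5.48% of those in the Tlr6 transcripts were identical in the other gene. The 199 shared windows are more than the printed stretch, the longest one shared, can hold, so other sequence is shared too. A read inside shared sequence can be placed only by a mate outside such sequence, and how much this lowered either count was not tested.

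The sequences just upstream of both genes differ. RefSeq promoter entries (build GRCm38.p6) were found for 7 of the 10 genes. Cd14 was left out of the motif search. For the others with an entry, the 250 bases before the start were searched on both strands. The letters sought were those of a PU.1 motif (GAGGAAGT), a C/EBP motif (TTGCNNAA), the NF-kB motif and an AP-1 motif (TGANTCA), for factors that act in myeloid cells. The bases outside the annotated gene are printed for this pair, in lower case with the motif match in capitals, for Tlr1 at chr5:64933564-64933808 and for Tlr6 at chr5:64960098-64960298, both read on the minus strand.
Tlr1 promoter: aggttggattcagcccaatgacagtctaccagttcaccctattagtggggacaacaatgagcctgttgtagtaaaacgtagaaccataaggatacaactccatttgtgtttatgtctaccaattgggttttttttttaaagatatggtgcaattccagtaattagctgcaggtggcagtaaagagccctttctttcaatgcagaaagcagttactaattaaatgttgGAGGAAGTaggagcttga
Tlr6 promoter: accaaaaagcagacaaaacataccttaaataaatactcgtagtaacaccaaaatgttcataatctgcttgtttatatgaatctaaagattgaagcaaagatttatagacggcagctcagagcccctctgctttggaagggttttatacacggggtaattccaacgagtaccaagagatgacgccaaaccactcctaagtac
The Tlr1 window held the PU.1 letters from 23 to 16 bases before the start, and the Tlr6 window held none of the motifs. Among 32851 promoter windows of the same length, 2.44% held the PU.1 letters, 9.56% the C/EBP letters, 0.356% the NF-kB letters and 6.75% the AP-1 letters. Of the other members searched, Tlr9 held AP-1 letters (TGACTCA). These matches describe the letters only.

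Each library held between 34220182 and 46233555 counts on genes, with overlapping totals between the groups. Cxcr2 itself, the gene knocked out, measured between 1719 and 2252 CPM (counts scaled to the depth of the library, with the TMM factors of edgeR) in WT libraries and between 12.9 and 20.7 in Cxcr2-/- libraries, so each library matched its label. Read pairs outside genes made up 31.4 to 41.5% of pairs in WT libraries and 26.7 to 31.9% in Cxcr2-/- libraries. Markers of neutrophil precursors were higher in Cxcr2-/- neutrophils for 8 of 8 genes, beside 23.7% of all genes tested. Their summed level was 17348 to 21201 CPM in WT and 39778 to 57898 CPM in Cxcr2-/- libraries. Most of this sum was Ltf, Camp and Ngp, whose means in WT were already 8700, 2589 and 8357 CPM. Among Cxcr2-/- libraries the sum was highest in replicate 1 and lowest in replicate 4. Neutrophil markers were higher for 6 of 9 genes and lower for 2 (Csf3r and Cxcr2), beside 23.7% and 21.0% of all genes tested. Ly6g, S100a8 and S100a9 rose by 1.26, 1.24 and 1.32 on the log2 scale, and Ltf, Camp and Ngp by 1.28, 1.23 and 1.33. The primary granule genes Mpo, Elane, Prtn3 and Ctsg were highest in Cxcr2-/- replicates 3 and 4, with Mpo at 81.2 and 146 CPM there against 19.1 and 20.2 CPM in replicates 1 and 2. WT replicate 2 stood apart in its group with C1qa at 5.79 CPM, against 0.0578 to 1.58 CPM in the other WT libraries. Because these are bulk libraries, fewer cells of a type and less RNA per cell cannot be told apart.

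Of the 10 genes, 1 was higher in Cxcr2-/- neutrophils (Tlr1), 4 were lower (Tlr6, Tlr7, Tlr13 and Cd14), and 5 did not pass the test (Tlr2, Tlr4, Tlr9, Myd88 and Irak4). A gene passed when its p from the quasi-likelihood test of edgeR, adjusted by the method of Benjamini and Hochberg over all 16778 genes tested, was under 0.05. By the same rule 44.7% of all genes tested passed, 23.7% higher and 21.0% lower in Cxcr2-/- neutrophils, so that the share of these 10 genes that passed was close to the background. The study also required a 1.5-fold change. By both thresholds 4 of the 10 passed, Tlr1 as higher and Tlr7, Tlr13 and Cd14 as lower, but not Tlr6. Of all genes tested, 15.7% passed both as higher and 15.7% as lower. The median log2 fold change over the 10 genes was -0.36, beside 0.01 over all genes tested. The ranges of the 4 WT and the 4 Cxcr2-/- libraries did not overlap for 5 of the 10 genes, and this was so for 41.6% of all genes tested.

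**Figure D1:**
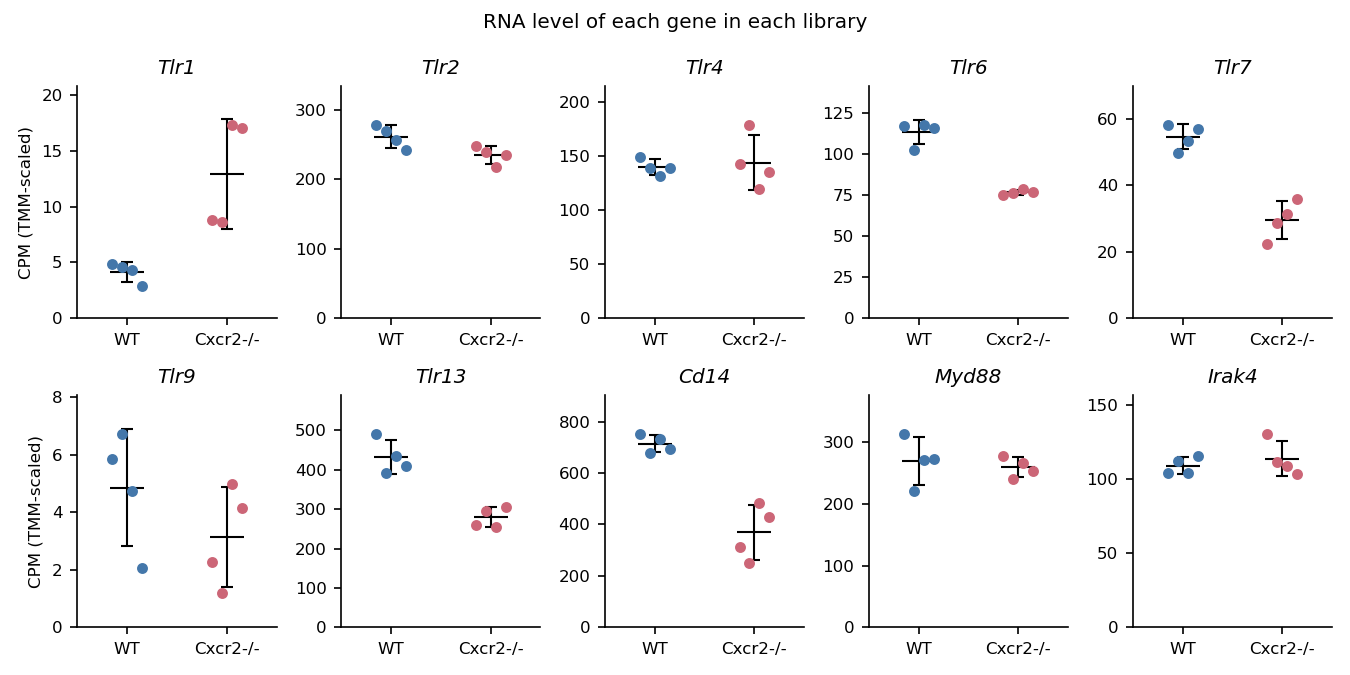
RNA level of each of the 10 genes in CPM (vertical axes, each starting at 0) in the 4 WT and 4 Cxcr2-/- libraries. Points are single libraries, and the bar with whiskers is the mean with its SD. Tlr1 was higher in all 4 Cxcr2-/- libraries than in any WT library, whereas Tlr6, Tlr7, Tlr13 and Cd14 were lower in all 4.

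Among the surface receptors, Tlr1, the partner of Tlr2 for triacylated lipopeptides, rose from a low level. Its levels in WT replicates 1 to 4 were 4.89, 4.60, 4.36 and 2.86 CPM, and in Cxcr2-/- replicates 1 to 4 they were 8.77, 8.58, 17.3 and 17.0 CPM. Every Cxcr2-/- library was above every WT library, and replicates 3 and 4, the libraries with the most Mpo, were the highest. The mean was 4.18 ± 0.902 CPM (SD, n = 4) among WT mice and 12.9 ± 4.90 CPM (SD, n = 4) among Cxcr2-/- mice, which gave a log2 fold change of 1.62 ± 0.26 (SE, edgeR adjusted p = 2.80e-04) with a 95% interval from 1.06 to 2.19. Without Cxcr2-/- replicates 3 and 4 the log2 fold change was 1.03 (edgeR adjusted p = 0.00145). The counts behind these levels ran from 99 to 700 per library.

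Tlr6, the partner of Tlr2 for diacylated lipopeptides, fell. It measured 117, 103, 118 and 116 CPM in the WT libraries and 75.2, 76.3, 78.6 and 77.1 CPM in the Cxcr2-/- libraries. The groups did not overlap, and the mean was 113 ± 7.13 CPM for WT and 76.8 ± 1.47 CPM for Cxcr2-/- mice (SD, n = 4). Its log2 fold change was -0.56 ± 0.08 (SE, edgeR adjusted p = 1.27e-04), with a 95% interval from -0.74 to -0.39. This corresponds to a 1.48-fold lower level, short of the 1.5-fold change that the study also required.

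Tlr2, the common partner of both, did not pass the test. Its levels were 278, 269, 257 and 242 CPM in the WT libraries and 248, 239, 218 and 235 CPM in the Cxcr2-/- libraries. Cxcr2-/- replicate 1 was above WT replicate 4, so the groups overlapped. The log2 fold change was -0.16 ± 0.09 (SE), with a 95% interval from -0.35 to 0.04 (edgeR adjusted p = 0.174). The call depended on the scaling: it was -0.28 (adjusted p = 0.0203) with upper-quartile factors and -0.25 (adjusted p = 0.0277) with total counts.

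Within each library the balance between these receptors is given as a ratio of CPM per kb of exon, as a description without a test. The ratio of Tlr1 to Tlr6 RNA was 0.0413 ± 0.00982 (SD, n = 4) in WT and 0.187 ± 0.0680 (SD, n = 4) in Cxcr2-/- neutrophils. Its range was 0.0276 to 0.0499 in WT and 0.125 to 0.246 in Cxcr2-/- libraries, without overlap. Tlr6 remained the more abundant of the pair in every library. The ratio of Tlr6 to Tlr2 was 0.352 ± 0.0348 in WT and 0.265 ± 0.0196 in Cxcr2-/- neutrophils (SD, n = 4), also without overlap.

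The lipopolysaccharide receptor Tlr4 and its co-receptor Cd14 were different in their behaviour. Tlr4 was at 149, 139, 131 and 139.5 CPM in WT and at 142, 179, 119 and 135 CPM in Cxcr2-/- libraries, where both the highest and the lowest value of all 8 libraries were found. The log2 fold change of Tlr4 was 0.04 ± 0.12 (SE), with a 95% interval from -0.21 to 0.30 (edgeR adjusted p = 0.792), and its sign turned with the scaling (-0.08 with upper-quartile factors).

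Cd14, which loads lipopolysaccharide onto the Tlr4 complex and also helps other receptors of the family, was the most abundant of the 10 genes per kb of exon in both groups and fell. Its change was not separated from that of Tlr7, and their order turned without Cxcr2-/- replicate 2 (-0.80 and -0.86) and with the B cell covariate (-0.55 and -0.63). It measured 753, 678, 731 and 695 CPM in the WT libraries and 313, 252, 482 and 429 CPM in the Cxcr2-/- libraries. All Cxcr2-/- libraries were below all WT libraries, and replicates 3 and 4 were the closest to WT. The mean was 714 ± 33.7 CPM among WT mice and 369 ± 105 CPM among Cxcr2-/- mice (SD, n = 4), with a log2 fold change of -0.95 ± 0.17 (SE, edgeR adjusted p = 6.71e-04) with a 95% interval from -1.33 to -0.58. Without replicates 3 and 4 of Cxcr2-/- it was -1.36 (edgeR adjusted p = 4.05e-06). The ratio of Cd14 to Tlr4 per kb was 16.4 ± 0.978 in WT and 8.67 ± 3.67 in Cxcr2-/- libraries (SD, n = 4), which did not overlap.

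**Figure D2:**
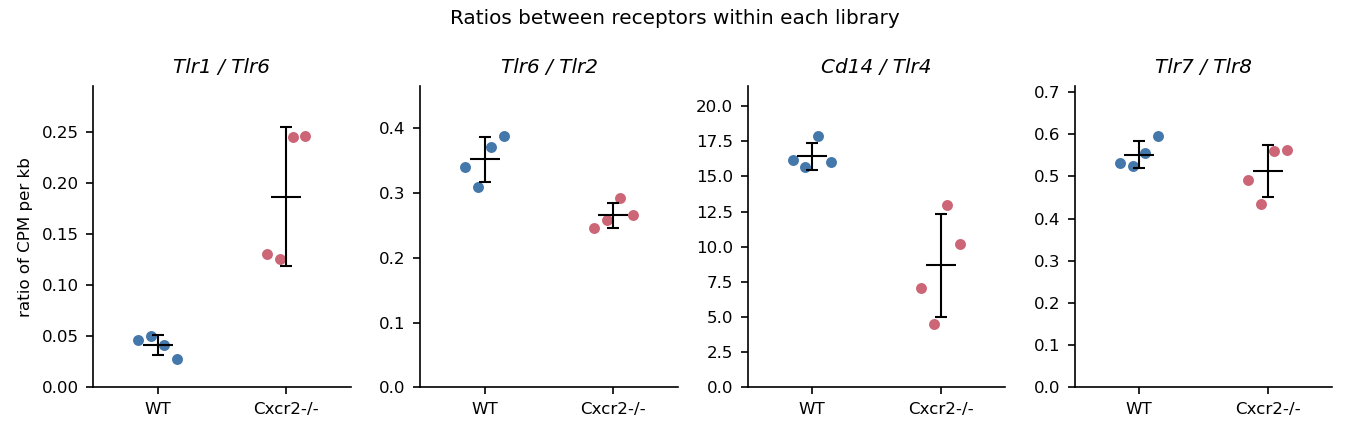
Ratios between the CPM per kb of 2 genes in the same library (vertical axes, each starting at 0), for 4 WT and 4 Cxcr2-/- libraries. Points are single libraries and the bar with whiskers is the mean with its SD. Tlr1 over Tlr6 was higher, and Tlr6 over Tlr2 and Cd14 over Tlr4 were lower, in every Cxcr2-/- library, while the ranges of Tlr7 over Tlr8 overlapped.

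Of the 3 endosomal receptors, Tlr7 and Tlr13 fell and Tlr9 did not pass the test. Tlr7, a sensor of single-stranded RNA on chromosome X (167304929 to 167330558, minus strand), measured 58.1, 49.8, 53.2 and 56.9 CPM in the WT libraries and 22.4, 28.6, 31.3 and 35.9 CPM in the Cxcr2-/- libraries. The groups did not overlap. The log2 fold change was -0.88 ± 0.13 (SE, edgeR adjusted p = 1.35e-04), with a 95% interval from -1.16 to -0.61.

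Tlr13, which recognises bacterial ribosomal RNA in mice, was the most abundant of the 12 Toll-like receptors per kb of exon in WT, although its range overlapped that of Tlr2 there. Its levels were 491, 392, 434 and 409 CPM in the WT libraries and 260.5, 296, 254 and 305 CPM in the Cxcr2-/- libraries. No Cxcr2-/- library reached the lowest WT library. The log2 fold change was -0.63 ± 0.11 (SE, edgeR adjusted p = 4.01e-04), with a 95% interval from -0.86 to -0.40.

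Tlr9, the sensor of unmethylated CpG DNA, was rare and scattered. It measured 5.86, 6.73, 4.76 and 2.05 CPM in the WT libraries and 2.28, 1.19, 4.98 and 4.16 CPM in the Cxcr2-/- libraries, from 43 to 335 counts per library. The groups overlapped, and the log2 fold change of -0.62 had a 95% interval from -1.52 to 0.27 (edgeR adjusted p = 0.241). Without Cxcr2-/- replicates 3 and 4 it was -1.50 and passed (edgeR adjusted p = 0.00837). Tlr9 is also made in B cells and dendritic cells, whose marker RNA was lower in the Cxcr2-/- libraries. The summed B cell markers ran from 73.0 to 157 CPM in WT and from 32.4 to 72.8 CPM in Cxcr2-/- libraries. Dendritic cell markers ran from 14.5 to 41.1 CPM in WT and from 7.83 to 13.2 CPM in Cxcr2-/- libraries. Whether such cells remained after the sort for CD11b+ Ly6G+ cells, or contributed Tlr9 RNA, was not tested. WT replicate 2, the highest for Tlr9, was the highest for the dendritic cell markers and the lowest WT library for the B cell markers. With the B cell markers as a covariate, which differ between the groups, the log2 fold change of Tlr9 was -0.07 (edgeR adjusted p = 0.939). With the monocyte, macrophage and dendritic cell markers as a covariate it was -0.25 (edgeR adjusted p = 0.451).

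The proximal signalling genes of this set, Myd88 and Irak4, did not pass the test. Myd88, the adaptor used by all 7 receptors, measured 313, 219.9, 271 and 273 CPM in the WT libraries and 277, 241, 266 and 253 CPM in the Cxcr2-/- libraries. All Cxcr2-/- libraries lay inside the WT range, whose low end was WT replicate 2. On the log2 scale the change was -0.05 ± 0.11 (SE), with a 95% interval from -0.30 to 0.19 (edgeR adjusted p = 0.721).

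Irak4, the first kinase recruited by Myd88, measured 104, 112, 104 and 115 CPM in the WT libraries and 131, 111, 109 and 103 CPM in the Cxcr2-/- libraries. The ranges overlapped, and replicate 1 of Cxcr2-/- held the highest value. On the log2 scale Irak4 differed by 0.06 ± 0.09 (SE), with a 95% interval from -0.14 to 0.26 (edgeR adjusted p = 0.636). Myd88 shares 290 exon bases (11.3%) with Acaa1a and Irak4 shares 395 (7.87%) with Twf1 on the opposite strand, and since the strand setting of the counting is not given in the sources used here, reads of these stretches are uncertain.

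**Figure D3:**
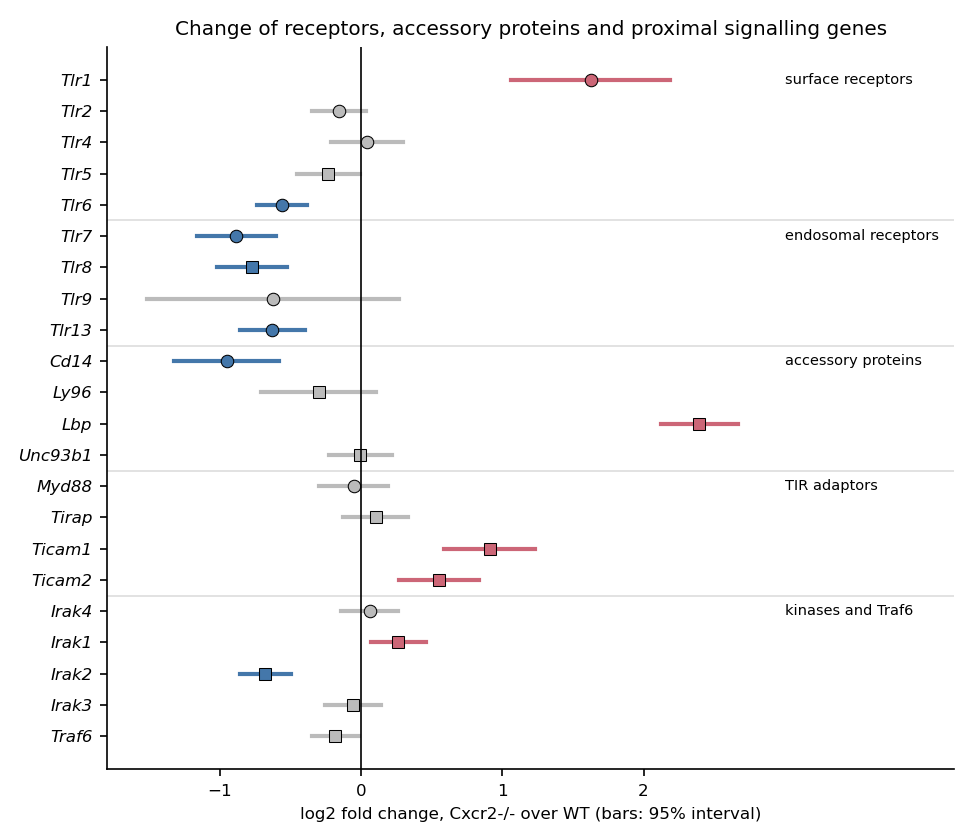
Log2 fold change of Cxcr2-/- over WT (horizontal axis) for surface and endosomal receptors, accessory proteins, TIR adaptors and proximal kinases, with 95% intervals from the edgeR fit (n = 4 and 4). Circles are the 10 genes and squares related genes; red passed as higher, blue passed as lower and grey did not pass. The intervals of Tlr2, Tlr4, Tlr9, Myd88 and Irak4 include 0.

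The order of levels per kb of exon changed below Cd14 and Myd88. In WT neutrophils Cd14 came first (412 ± 19.4 CPM per kb, SD, n = 4), followed by Myd88 (104 ± 14.8), Tlr13 (100.3 ± 10.1), Tlr2 (86.8 ± 5.30), Tlr6 (30.4 ± 1.91), Tlr4 (25.2 ± 1.34), Irak4 (21.7 ± 1.11), Tlr7 (13.4 ± 0.926), Tlr9 (1.39 ± 0.584) and Tlr1 (1.25 ± 0.270). The ranges of Myd88, Tlr13 and Tlr2 overlapped one after the other, as did those of Tlr9 and Tlr1. In Cxcr2-/- neutrophils Cd14 (213 ± 60.8 CPM per kb) and Myd88 (100.6 ± 6.12) kept their places, and Tlr2 (77.9 ± 4.15) lay above Tlr13 (64.8 ± 5.91) without overlap. Tlr4 (25.9 ± 4.56), Irak4 (22.6 ± 2.36) and Tlr6 (20.6 ± 0.394) followed with overlapping neighbours, Tlr7 (7.24 ± 1.38) came next, and Tlr1 (3.86 ± 1.46) lay above Tlr9 (0.906 ± 0.497).

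Summed over all 12 Toll-like receptors, the receptor RNA was 295 ± 17.8 CPM per kb in WT and 226 ± 12.8 CPM per kb in Cxcr2-/- mice (SD, n = 4). Surface receptors (Tlr1, Tlr2, Tlr4, Tlr5 and Tlr6) made up 52.8% ± 1.51 of it in WT and 61.4% ± 2.33 in Cxcr2-/- libraries, and the endosomal receptors the remainder. The lowest Cxcr2-/- library was at 58.6% and the highest WT library at 54.8%. The share of Tlr13 was 33.9% ± 1.52 in WT and 28.7% ± 1.22 in Cxcr2-/- libraries, whereas that of Tlr2 was 29.4% ± 1.30 and 34.5% ± 2.08, although the estimate for the level of Tlr2 itself was lower. These shares are descriptions from the same values as above.

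**Figure D4:**
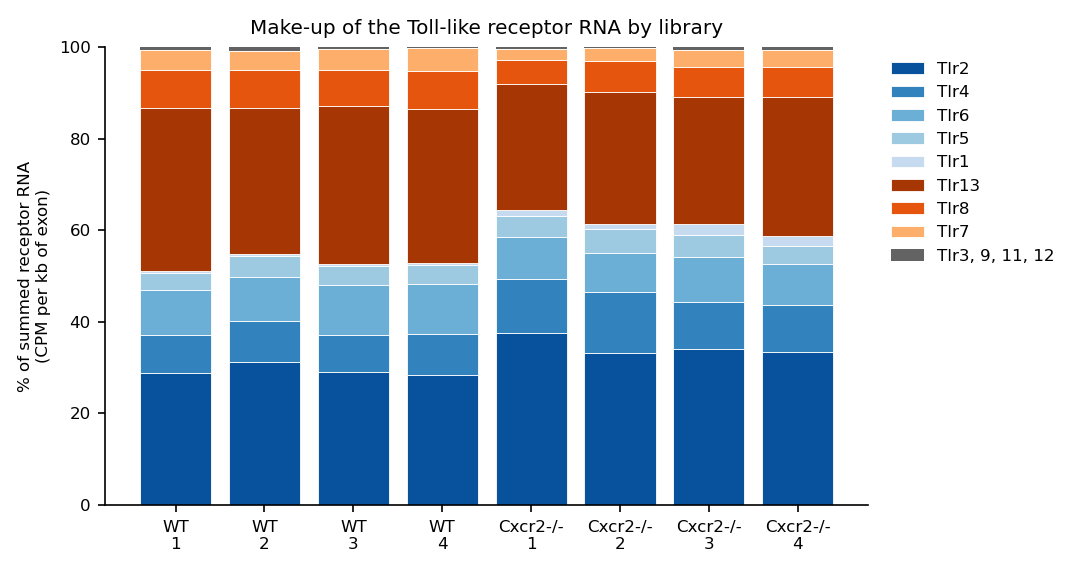
Share of each Toll-like receptor in the summed receptor RNA of each library, in percent of CPM per kb of exon (vertical axis), for 4 WT and 4 Cxcr2-/- libraries. Blue parts are surface receptors, orange parts endosomal receptors and the thin grey part the rare receptors. The blue part covers 51.1 to 54.8% of the WT bars and 58.6 to 64.3% of the Cxcr2-/- bars.

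Of the 5 Toll-like receptors outside this set, Tlr8 fell beside its neighbour Tlr7. Tlr8, which lies 40.6 kb from Tlr7 on chromosome X, measured 83.5 to 96.0 CPM in WT and 40.1 to 57.9 CPM in Cxcr2-/- libraries, with a log2 fold change of -0.78 ± 0.11 (SE, edgeR adjusted p = 1.53e-04). The ratio of Tlr7 to Tlr8 per kb was 0.552 ± 0.0321 in WT and 0.512 ± 0.0616 in Cxcr2-/- neutrophils (SD, n = 4), with overlap. Tlr5, the flagellin receptor, had a log2 fold change of -0.23 (edgeR adjusted p = 0.0823) and did not pass, but it passed as lower in 5 of 19 alternatives, among them upper-quartile factors (-0.35, adjusted p = 0.0127) and the fit without Cxcr2-/- replicate 2 (-0.33, adjusted p = 0.0134). Tlr3 and Tlr11 stayed below 1.1 CPM and did not pass, and Tlr12 was too low to test.

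Of 10 tested genes of accessory and trafficking proteins, which help the receptors, 2 were higher and 3 lower, beside 23.7% and 21.0% of all genes tested. Lbp, whose product carries lipopolysaccharide to Cd14, rose from 25.5 ± 2.43 to 134 ± 21.1 CPM (SD, n = 4), a log2 fold change of 2.40 ± 0.13 (SE, edgeR adjusted p = 7.77e-08), the opposite direction to Cd14. The chaperone Hsp90b1, which folds the receptors, also rose (0.43), while its co-chaperone Cnpy3 fell (-0.54). Unc93b1, which carries endosomal receptors out of the endoplasmic reticulum, had a log2 fold change of -0.01 (edgeR adjusted p = 0.958), and the ratio of Tlr13 to Unc93b1 per kb was 1.32 ± 0.0935 in WT and 0.873 ± 0.170 in Cxcr2-/- neutrophils (SD, n = 4), without overlap. The endolysosomal transporters Slc15a3 (-0.79) and Slc15a4 (-0.76) fell, as Tlr7 did. Ly96, the partner of Tlr4 in binding lipopolysaccharide, did not pass (-0.30, edgeR adjusted p = 0.217).

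Of 4 other TIR adaptors tested, 2 were higher and none lower. Ticam1, the adaptor of Tlr3 and of endosomal Tlr4, rose by 0.91 on the log2 scale, from 10.6 ± 1.03 to 19.8 ± 4.14 CPM (SD, n = 4, edgeR adjusted p = 3.44e-04), and Ticam2, which links Tlr4 to Ticam1, rose by 0.55 (edgeR adjusted p = 0.00438). Ticam2 lost its call with the B cell covariate (0.29, adjusted p = 0.257), and both lost it with the share of pairs outside genes as a covariate (0.53 and 0.52, adjusted p = 0.153 for each). Tirap, which links Tlr2 and Tlr4 to Myd88, had a log2 fold change of 0.10 (edgeR adjusted p = 0.457). Among 15 tested signalling genes below Irak4, 5 were higher and 4 lower, beside 23.7% and 21.0% of all genes tested. The kinase Map3k7 (0.61), its partner Tab1 (0.40) and the ligase Peli2 (0.34) rose, and the ligase Peli1 (-1.12), the kinase Irak2 (-0.68) and the adaptor Tab2 (-0.26) fell, with the remaining calls in Irak1 (0.26), Ikbkg (0.28) and Ikbkb (-0.26), named after their values were seen. Tab1 missed the threshold with upper-quartile factors (0.28, adjusted p = 0.0592), with total counts, without the filter on low counts and with the covariates for B cell markers and for pairs outside genes (adjusted p = 0.0517 to 0.160). Peli2 lost its call without WT replicate 1, 2 or 3 or Cxcr2-/- replicate 2 (0.28 to 0.33), and Tab2 without WT replicate 1 or 4 or Cxcr2-/- replicate 1, 3 or 4 (-0.26 to -0.21). Among the fits without a single library, Irak1 kept its call only without Cxcr2-/- replicate 4. Ikbkg kept it there only without WT replicate 4 or Cxcr2-/- replicate 3 or 4. Ikbkb lost it there without WT replicate 2 or Cxcr2-/- replicate 2. Over all 19 alternatives Irak1 kept its call in 4, Ikbkg in 5 and Ikbkb in 12.

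On the TRIF branch and among interferon regulatory factors, 1 of 7 genes was higher and 2 lower, beside 23.7% and 21.0% of all genes tested. The kinase Ikbke rose (1.15), and Irf5 (-0.67), a transcription factor that acts below Tlr7 and Myd88, and Traf3 (-0.36) fell. Irf5 lost its call with the covariates for B cell markers (-0.38, adjusted p = 0.256) and for pairs outside genes (-0.46, adjusted p = 0.306). Inhibitors of the pathway were lower in 4 of 10 cases and higher in none, with Tnfaip3, the deubiquitinase A20, at -1.51, Socs1 at -0.55 and Nrros at -0.33, and also Tnip1 at -0.33, named after its value was seen. Tnfaip3 (-1.02 and -1.20, adjusted p = 0.0532 and 0.0912) and Nrros (-0.19 and -0.43, adjusted p = 0.317 and 0.0656) lost their calls with the same covariates. Irak3 and Tollip did not pass. Of the interleukin-1 family receptors that also signal through Myd88, Il1rl2 (1.35) and Il18r1 (0.66) rose and Il1rap (-1.02) and Il1r1 (-0.96) fell among 5 tested. Without single libraries Tnip1 (WT replicate 1 or 4, Cxcr2-/- replicate 2 or 4), Traf3 (WT replicate 1, 2 or 4, Cxcr2-/- replicate 3 or 4), Socs1 (WT replicate 1 or 2, Cxcr2-/- replicate 2 or 3) and Il1r1 (WT replicate 1 or 4, Cxcr2-/- replicate 1, 3 or 4) did not pass.

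Genes that Toll-like receptors are known to induce were mostly lower. Of 23 tested target genes of Myd88 and NF-kB, 15 were lower and 1 higher, with a median log2 fold change of -1.07, beside 0.01 over all genes tested. Ptgs2, the inducible cyclooxygenase, fell by 3.22 on the log2 scale, from 741 ± 124 to 79.3 ± 45.2 CPM (SD, n = 4, edgeR adjusted p = 1.42e-05). The chemokines Ccl3 (-2.72) and Cxcl3 (-2.25) fell too, with Cxcl3 at a low level in both groups (2.34 and 0.483 CPM) and at -3.27 without Cxcr2-/- replicate 4. Tnf rose by 0.50 (edgeR adjusted p = 0.00831), although its ranges overlapped. Of 9 tested targets of TRIF and interferon, 4 were lower, among them Rsad2 (-1.95), Oasl1 (-1.32) and Isg15 (-0.79), and Ifit2 was higher (1.06). Over all pathway and target lists, 14 of 87 tested genes were higher and 35 lower, beside 23.7% and 21.0% of all genes tested. These counts describe the lists, and no test of a list was made.

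**Figure D5:**
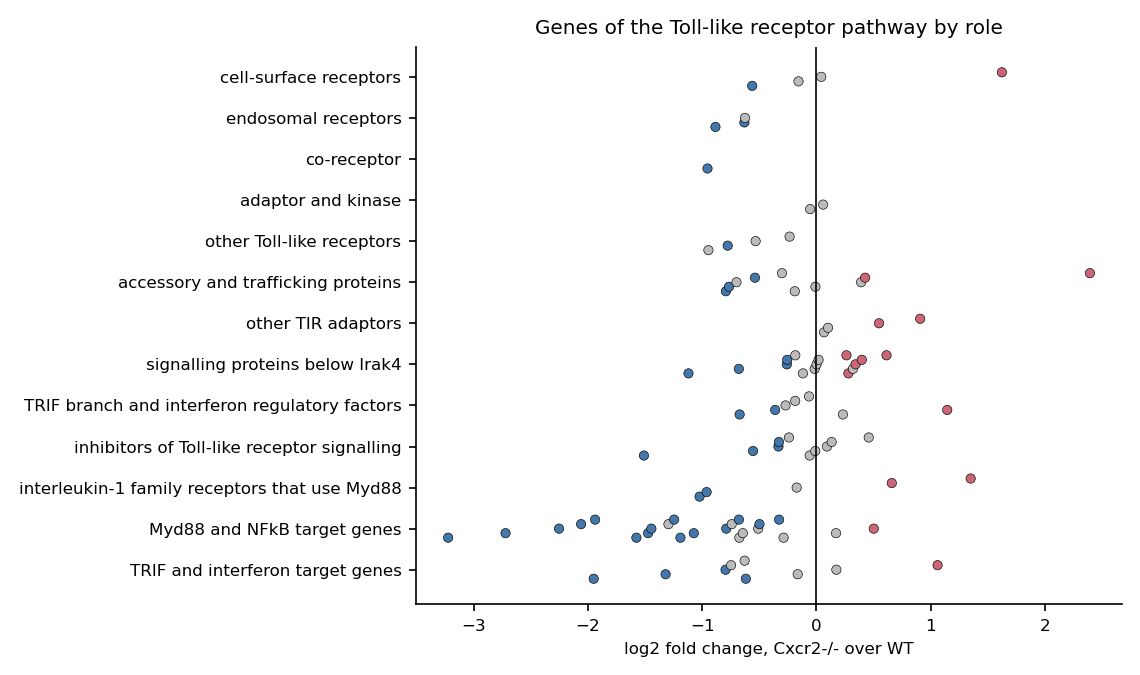
Log2 fold change of Cxcr2-/- over WT (horizontal axis) of every tested gene of the Toll-like receptor pathway, 1 row per role. Each point is a gene; red passed as higher, blue passed as lower and grey did not pass in edgeR. The Myd88 and NF-kB target genes lie mostly left of 0, with 15 of 23 lower, while the genes below Irak4 lie on both sides, with 5 higher and 4 lower of 15.

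Some markers of other cells also differed between the groups. Of 12 monocyte and macrophage markers, 3 were higher and 2 lower, beside 23.7% and 21.0% of all genes tested. The lower ones were Csf1r and Adgre1, and the higher ones were Ly6c2, Ms4a6c and Mertk. The summed level ran from 707 to 826 CPM in WT and from 848 to 966 CPM in Cxcr2-/- libraries. Ly6c2 alone carried the higher sum. Without it the sum ran from 459.7 to 556 CPM in WT and from 215 to 334 CPM in Cxcr2-/- libraries. Most of that remainder was Csf1r alone, with a mean of 442 CPM in WT and 232 CPM in Cxcr2-/- mice. The list as a whole was mixed, with a positive log2 fold change for 6 markers and a negative one for 6. B cell markers were lower for 6 of 8 genes and dendritic cell markers for 3 of 7 tested, beside 21.0% of all genes tested. No marker of these lists was at 0 in all libraries. With the monocyte, macrophage and dendritic cell markers as a covariate the calls of all 10 genes were as before. With the B cell markers as a covariate, which follow the groups, Tlr1 (2.18), Tlr6 (-0.47), Tlr7 (-0.63) and Tlr13 (-0.47) passed and Cd14 did not (-0.55, edgeR adjusted p = 0.0558). Neutrophil precursor markers and the genotype cannot be told apart, since the groups did not overlap in them.

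For Tlr2, Tlr4 and Cd14, the genes with the most similar profile over the 8 libraries were looked up among 4226 well-expressed genes, by the root-mean-square distance between centred log2 CPM values. Closest to Tlr2 were Fam168a (0.0507), Rxrb (0.0574) and 8030462N17Rik (0.0645). Closest to Tlr4 were Rock1 (0.0627), Rab21 (0.0653) and Larp4 (0.0654). Cd14 had more distant neighbours, Nfkbid (0.109), an atypical inhibitor of NF-kB, Napa (0.112) and Zfp622 (0.114), whose log2 fold changes were -1.01, -0.91 and -0.93. Since the distance spans both groups, changes close to that of Cd14 follow from how these genes were picked and are not a separate result.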

How the data were processed

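RNAseq of 8 sorted spleen neutrophil samples was analysed. The authors depleted ribosomal RNA, made directional libraries, read both ends (150 bases), trimmed reads to at least 120 bases, aligned them with STAR to mm10 and counted with HTSeq, and the deposited values are whole-number counts per gene without normalization. Versions and the strand setting are not given in the sources used here. Of 55414 identifiers, 52081 had an entry in GENCODE M21, but only 35 with the same version suffix, so coordinates and exon lengths may differ from those used for counting. Library depth was 34220182 to 46233555 counts. The biological coefficient of variation between mice was 0.202.

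Groups came from the labels. Counts were fitted in R 4.3.3 with edgeR 4.0.16 (quasi-likelihood, TMM, filterByExpr, Benjamini-Hochberg over 16778 genes, threshold 0.05), after tests on simulated data. CPM are counts over TMM-scaled totals. Alternatives were DESeq2 1.42.0, other scalings and filters, a replicate block, marker covariates and single libraries left out. The 10 genes and all lists were chosen with earlier results of these data known, so the counts are descriptive. Related genes named are, of each list, up to 3 per direction with the largest change among those that passed, and every Toll-like receptor. Unc93b1, Ly96, Tirap, Irak3, Tollip, Irak1, Ikbkg, Ikbkb and Tnip1 were named outside this rule, after their values were seen. With 4 animals per group, the p-values weigh the difference between the groups against the spread between mice.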

Additional observations from a re-analysis of the deposited data

Results flagged for a closer look

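Single libraries stood apart from the other 3 of their group in 5 of 110 tested groups of 4, as far as Dixon's test goes, and chance alone flags about 1 in 20 groups. Tlr6 was lowest in WT replicate 2, at 102.7 CPM beside 116 to 118 CPM in the other WT libraries. Tlr8 was highest in WT replicate 1, at 96.0 CPM beside 83.5 to 84.1 CPM. Ticam2 (9.38 CPM, others 7.87 to 8.12 CPM) and Peli1 (198.4 CPM, others 191 to 192 CPM) were highest in WT replicate 2. Tlr12 had a value of 0 in Cxcr2-/- replicate 1, beside 0.0486 to 0.0553 CPM in the other Cxcr2-/- libraries, which is a few counts at most. None of these libraries decided the call of Tlr6, Tlr8, Ticam2 or Peli1: each passed without it.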

How the results depend on the processing

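Under 19 alternatives the number of the 10 genes called higher was 1 each time, and the number called lower was 3 to 5 (1 and 4 without any single library). Cd14 lost its call with the B cell covariate, Tlr2 gained one with upper-quartile or total-count scaling, and Tlr9 gained one without Cxcr2-/- replicates 3 and 4. The signs of 3 of the 10 genes, none of which ever passed, turned. Tlr4 was -0.076 with upper-quartile factors, -0.048 with total counts, -0.019, -0.12 and -0.068 with covariates for macrophage and dendritic cell markers, B cell markers and pairs outside genes, and -0.0040 and -0.074 without WT replicate 3 and Cxcr2-/- replicate 2 (-0.074 to 0.11 without single libraries). Myd88 was 0.16 with the B cell covariate and 0.030 without WT replicate 1 (-0.16 to 0.030 without single libraries). Irak4 was -0.061, -0.036, -0.096 and -0.0017 with upper-quartile factors, total counts, the B cell covariate and the pairs covariate, and -0.0089 without Cxcr2-/- replicate 1 (-0.0089 to 0.089 without single libraries). Of related genes that did not pass, Unc93b1 was 0.047 with the B cell covariate, 0.0064 without Cxcr2-/- replicates 3 and 4 and -0.080 to 0.042 without single libraries, Ly96 was 0.13 with the B cell covariate, and Tirap was -0.017 with upper-quartile factors and -0.16 with the B cell covariate. Il18r1, Tnf and Cxcl3 lost their calls with both the B cell and the pairs covariate, and Isg15 with the B cell covariate. Irak1 and Ikbkg passed in the reported fit and not with DESeq2 (0.25 and 0.26). Pathway and target genes called higher numbered 14, and 8 and 6 with the B cell and pairs covariates, those called lower 35, and 22 and 22, and all genes passing 7495, and 4794 and 3083. Both covariates differ between the groups. Leaving out single libraries gave 11 to 14 higher, 28 to 35 lower, 6536 to 7174 genes passing and a Cxcr2 change of -6.94 to -6.75. Upper-quartile factors moved the median of all genes to -0.11 and the split of calls from 3969 higher and 3526 lower to 3076 and 4391, and total counts to 3248 and 4080. The alternatives with pairs outside genes, total counts and replicates 3 and 4 omitted were chosen after seeing the data. With a replicate block 1 gene was higher, 4 lower and 7068 genes passed in all. Same-numbered libraries correlated at 0.15, -0.19, 0.24 and -0.31, and 2 of the 4 numbers were their own best partner. Whether the numbers pair the mice is not given in the sources used here. With 4 libraries per group these correlations cannot decide it. Tab2, Il1r1, Ikbkg and Ikbkb missed the threshold under the block (-0.26, -0.96, 0.27 and -0.26).

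The depth limits Tlr1 and Tlr9 (43 to 700 counts per library) and leaves Tlr3, Tlr11 and Tlr12 unresolved. The cause of these differences was not tested.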
